A study of Mus musculus with 3 samples.

Results

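The genes described here are 32 mouse genes that encode MYC, its relative MYCN and proteins needed to make ribosomes. They were taken by symbol from the 32285 gene rows of the deposited matrices, and all 32 were found. The study read RNA and surface proteins of single cells (CITE-seq). The cells were sorted as lineage-negative and KIT-positive from newborn mouse liver, on postnatal day 0. It had 3 libraries, 1 for each group: Control mice, mice with MLL-ENL, and mice with both MLL-ENL and a Skida1 deletion. MLL-ENL is a leukemia-associated fusion of the chromatin regulator MLL with the elongation factor ENL, and it is shared by the second and the third group. The sources used here do not give the allele or promoter behind the fusion, any Cre driver, the deleted stretch of Skida1, the genotype of the Control mice beyond that word or the number of animals pooled. With 1 library per group no difference below has a replicate check, no test between groups was possible, and genotype and library cannot be told apart. The Skida1-deleted library also differed from the others in its sex-linked RNA, so that deletion and sex cannot be told apart in any comparison with it.

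MYC and MYCN are related transcription factors that bind DNA together with MAX, mostly at the sequence CACGTG, called an E-box. Genes for ribosome production are among their best known targets. Ribosomes begin in the nucleolus, where RNA polymerase I transcribes the ribosomal RNA precursor, small nucleolar ribonucleoproteins (snoRNPs) modify it, and separate sets of assembly factors build the small and the large subunit. In blood formation, Myc is tied to the step from stem cell to dividing progenitor, whereas Mycn is expressed in stem cells.

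To show what an E-box at such a gene looks like, the 300-base RefSeq promoter windows (GRCm38.p6, 250 bases before to 50 after the start) were searched for CACGTG, which reads the same on both strands. Of the 32 genes, 25 had a window. The motif lay in 6 of these 25 (24.0%), against 8.09% of the 27025 genes with a window. Each of the 25 is chosen from a list of MYC-related genes, so the share is a description. The 30 bases around each match are given 5′ to 3′ on the strand of the gene, with the E-box in capitals.
Nop2 (chr6:125131811-125131840, + strand): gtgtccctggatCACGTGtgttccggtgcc
Grwd1 (chr7:45830740-45830769, - strand): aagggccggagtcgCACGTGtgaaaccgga
Utp20 (chr10:88826765-88826794, - strand): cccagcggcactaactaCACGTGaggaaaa
Mybbp1a (chr11:72441347-72441376, + strand): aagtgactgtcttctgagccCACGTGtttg
Tsr1 (chr11:74898092-74898121, + strand): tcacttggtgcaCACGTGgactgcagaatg
Wdr43 (chr17:71616220-71616249, + strand): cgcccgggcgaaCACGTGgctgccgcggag
The match in Nop2 began 60 bases before the start used by its window, and the others began 18 to 41 bases into the part transcribed from theirs. For some genes, such as Wdr43, that start differs from the start in the gene coordinates given below. A match is a description of these letters and not a measured binding site. Srm, Bop1, Rrs1, Npm1, Myc, Fbl and Rrp12 were not matched to a window. In HSPC-like cells the log2 ratio of MLL-ENL over Control, described below, had a median of -0.25 over the 6 genes with a match. It was -0.53 over the 19 with a window and no match. The 6 ran from -0.95 to 0.26 and the 19 from -0.92 to 0.40. At least 1.5-fold lower were 2 of the 6 and 8 of the 19. The difference was not tested.

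The kept cells numbered 5510 in Control, 10154 with MLL-ENL and 9168 with the deletion, with median depths of 28501, 14685.5 and 17025.5 unique molecules (UMIs). For Skida1 itself the labels give a direction only from MLL-ENL to the deletion, and its level fell there. It was at 1.04 CPM in Control HSPC-like cells, 16.6 CPM with MLL-ENL and 1.80 CPM with the deletion. Xist, which silences 1 X chromosome in female cells, was at 943, 1735 and 3.33 CPM in the same cells and order, and the Y-linked Ddx3y at 0, 0 and 76.9 CPM. Control and MLL-ENL were thus female by these genes and the Skida1-deleted library male. Of the 32 genes, Dkc1 alone lies on the X chromosome and none on the Y. Pairs of libraries shared at most 33 of the listed cell barcodes, and at most 21 among kept cells. Cells were grouped by clusters made without the 32 genes, and clusters were named only "like" a class. HSPC-like cells (hematopoietic stem and progenitor) numbered 1109, 1633 and 2223 in the order Control, MLL-ENL, Skida1-deleted, and erythroid-like cells 3075, 6742 and 4830. Myeloid progenitor-like cells, the sum of granulocyte and monocyte-dendritic clusters, numbered 368, 343 and 363. Of these, 32 Control, 332 MLL-ENL and 360 Skida1-deleted cells were granulocyte progenitor-like, so the classes being compared differ in makeup. In HSPC-like cells all 20 HSPC markers were detected in each library, with summed levels of 3584, 2576 and 2512 CPM, beside 2478, 1885 and 1842 CPM for 16 granulocyte progenitor markers and 953, 859 and 689.7 CPM for 22 erythroid markers. Other lists were higher in the fusion libraries: 12 monocyte-dendritic markers summed to 286, 513 and 526 CPM, and 12 lymphoid progenitor markers to 485, 695 and 680.5 CPM. The part of these markers in the results was not tested. Control stood apart: 86.6% of its cells lay in 9 clusters that were at least 90% Control, so within a class the libraries were compared across different clusters. Levels are CPM of the class, a gene's UMIs relative to the class's gene UMIs in the usual scaling, and a run of 3 levels is in the order Control, MLL-ENL, Skida1-deleted. Folds are ratios of CPM, and log2 values are log2 ratios of (CPM + 1). Brackets give 95% intervals that cover counting error only.

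In HSPC-like cells, most of the ribosome-making genes were lower in the MLL-ENL library than in Control. The median log2 ratio of the 32 genes was -0.47 [-0.61, -0.33], where the bracket holds the medians of the genes' lower and upper limits. Each gene had to pass a floor of 5 CPM in either library and 50 UMIs over both. The median of all 9834 genes above the floor was -0.11, which leaves a difference of -0.36. At a 1.5-fold limit, 12 of the 32 were lower and 0 were higher. Of all genes above the floor, 14.1% were lower and 7.49% were higher. The 12 were Srm, Grwd1, Rrp9, Nop16, Polr1b, Utp20, Rrp1b, Nip7, Noc4l, Nop56, Rrs1 and Nop14.

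**Figure D1:**
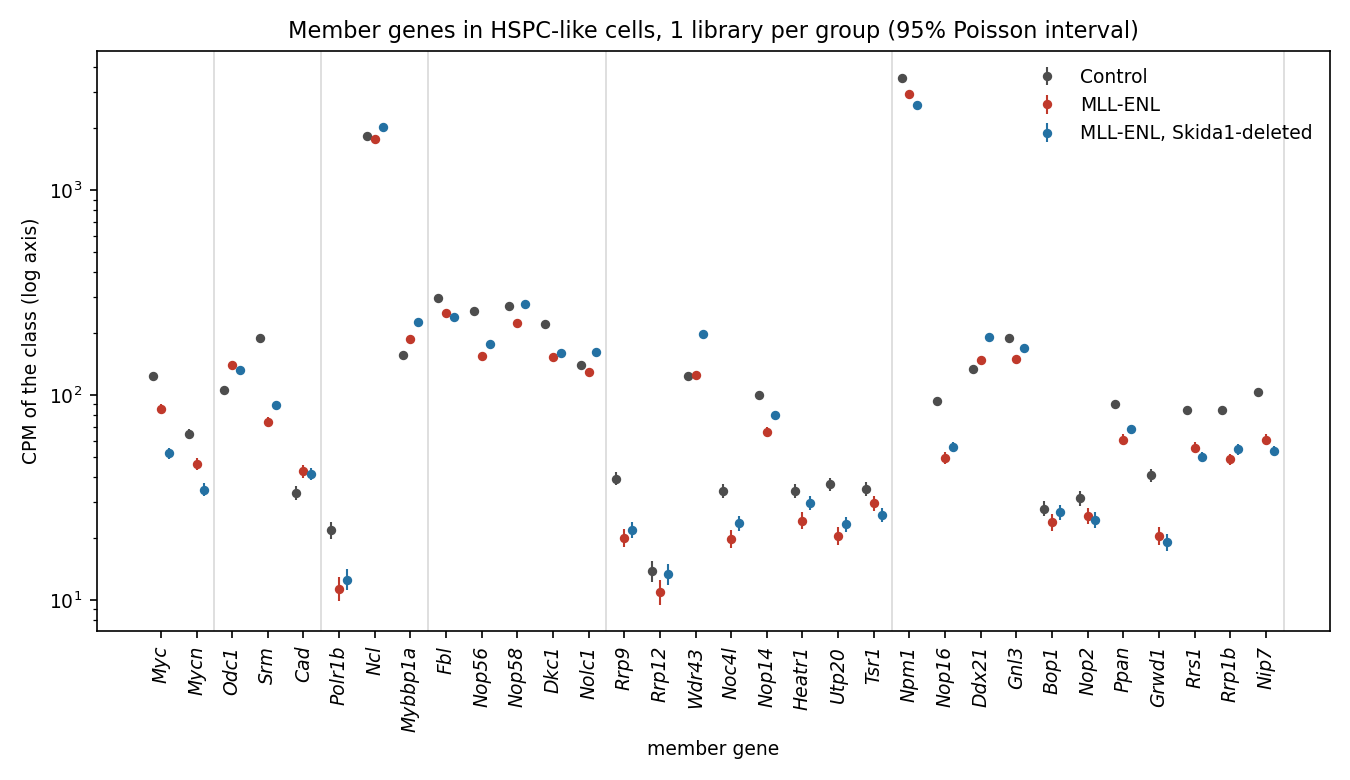
CPM of each of the 32 genes in HSPC-like cells on a log axis, by role from left to right with grey lines between roles. Points are the 3 libraries and bars are 95% Poisson intervals. For Srm the Control point (190.2 CPM) stands far above both fusion libraries, whereas the Odc1 and Mybbp1a points of both fusion libraries lie above Control.

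The enzymes of polyamine and pyrimidine synthesis split. Srm, spermidine synthase (chr4:148591513-148594619), was at 190.2 CPM in Control, 73.9 with MLL-ENL and 89.2 with the deletion, a fold of 0.389 [0.365, 0.414] for MLL-ENL over Control and the lowest of the 32. Odc1, ornithine decarboxylase, the enzyme that feeds the same polyamine pathway, went the other way, at 106 CPM, 141 CPM and 132 CPM. Its fold was 1.33 [1.25, 1.41]. Cad, which starts pyrimidine synthesis, was at 33.4, 42.4 and 41.3 CPM. In cells thinned to 3000 UMIs each, Srm was seen in 34.6% of Control cells, 14.8% of MLL-ENL cells and 20.5% of Skida1-deleted cells, and Odc1 in 21.0%, 31.0% and 30.8%. Before thinning, the shares were 73.6%, 39.99% and 43.6% for Srm and 70.1%, 69.1% and 63.3% for Odc1.

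Among genes of nucleolar transcription, Polr1b, the second largest subunit of RNA polymerase I, was at 21.9 CPM in Control, 11.3 with MLL-ENL and 12.6 with the deletion, a fold of 0.517 [0.436, 0.611]. Nucleolin (Ncl), an abundant nucleolar RNA-binding protein, barely differed between Control and MLL-ENL, at 1829 and 1783 CPM, and was at 2040 CPM with the deletion. Mybbp1a, a nucleolar protein that binds MYB, was higher in MLL-ENL, at 156, 187 and 227 CPM in the 3 libraries (fold over Control 1.20 [1.14, 1.26]).

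The snoRNP genes were all below Control in MLL-ENL, with 1 of 5 past 1.5-fold. That gene was Nop56, a core box C/D protein, at 258, 155 and 178 CPM (fold 0.603 [0.576, 0.632]). Its partner Nop58 was at 271, 224 and 278 CPM, and the methyltransferase Fbl at 298, 252 and 240 CPM. Dkc1, the pseudouridine synthase of the box H/ACA class, was at 222, 153 and 160 CPM. The chaperone Nolc1 was at 141, 130 and 162 CPM.

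Assembly factors of the small subunit had a median log2 ratio of -0.52, and 4 of 8 were at least 1.5-fold lower in MLL-ENL. Rrp9, a U3 snoRNP protein, was at 39.0, 20.1 and 21.9 CPM, and the processome scaffold Utp20 at 36.8, 20.6 and 23.4 CPM. Noc4l was at 34.0, 19.9 and 23.7 CPM and its partner Nop14 at 99.8, 66.1 and 80.1 CPM. The other 4 were Heatr1 (log2 ratio -0.46), Rrp12 (-0.31), Tsr1 (-0.23) and Wdr43 (0.01).

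Of the 11 genes for large subunit assembly, 5 were at least 1.5-fold lower, with a median log2 ratio of -0.57. Grwd1, a ribosomal protein chaperone, was at 40.6, 20.5 and 19.2 CPM, a fold of 0.506 [0.446, 0.572]. Nop16 was at 93.9, 49.4 and 56.1 CPM, Nip7 at 103, 60.6 and 53.4 CPM, Rrp1b at 84.2, 48.5 and 54.3 CPM, and Rrs1 at 84.7, 55.4 and 49.9 CPM. Nucleophosmin (Npm1), an abundant nucleolar chaperone, was at 3535, 2958 and 2614 CPM. Ppan had a log2 ratio of -0.57, Gnl3 -0.34, Nop2 -0.27 and Bop1 -0.21. The RNA helicase Ddx21 was the 1 gene of this role above Control, at 134, 149 and 193 CPM.

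Cell cycle genes were also lower in MLL-ENL. In HSPC-like cells the summed level of 53 G2M genes was 8569 CPM in Control, 5440 with MLL-ENL and 6214 with the deletion, and 40 of the 53 were at least 1.5-fold lower in MLL-ENL, against 14.1% of all genes. The 42 S phase genes summed to 3962, 3120 and 3171 CPM. Within cells given the same phase, the median log2 ratio of the 32 genes was -0.43 in G1, -0.57 in S and -0.24 in G2M. The median of all genes was -0.09, -0.14 and -0.14 in these phases. It was -0.22 between the cycling clusters, where the median of all genes was -0.15. Median depth also differed, at 16035 UMIs per HSPC-like cell in Control, 9915 with MLL-ENL and 8755 with the deletion. With cells thinned to 3000 UMIs the median log2 ratio was -0.58. Cells under 3000 UMIs were left out there, 4 in Control and 1 with MLL-ENL. The part of the cell cycle in the difference was otherwise not tested.

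The HSPC-like class also differed in makeup. The cluster with the highest level of Hlf, a stem cell transcription factor, held 4 Control cells, 523 MLL-ENL cells and 558 Skida1-deleted cells. Without it, the median for MLL-ENL over Control was -0.33 and the median of all genes was -0.17. There 12 of the 32 genes were at least 1.5-fold lower and 0 higher, where 16.4% and 5.25% of all genes were. Levels of the 30 genes other than Myc and Mycn were low in that cluster: their mean log2 level was 5.60 in MLL-ENL, against 6.21 and 6.44 in the other MLL-ENL clusters of the class.

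Myc itself was at 125 CPM in Control HSPC-like cells, 85.7 with MLL-ENL and 51.9 with the deletion, so the 3 libraries were in descending order. The fold was 0.688 [0.645, 0.733] for MLL-ENL over Control and 0.606 [0.561, 0.654] for Skida1-deleted over MLL-ENL. Mycn was at 64.7, 46.2 and 34.5 CPM in the same order. For MLL-ENL over Control the log2 ratio was -0.54 for Myc and -0.48 for Mycn. Without the cluster with the highest Hlf it was -0.34 for Myc and -0.91 for Mycn, so both sizes depend on that cluster. Between the cycling clusters it was -0.20 for Myc and -0.92 for Mycn. The fractions of thinned cells with a UMI were 27.5%, 18.9% and 12.9% for Myc (65.2%, 44.7% and 32.8% unthinned). For Mycn they were 20.7%, 16.2% and 12.0% (55.5%, 36.1% and 27.2% unthinned). In erythroid-like cells, whose median depths were 37002, 22346.5 and 26782 UMIs, thinned shares for Mycn were 0.460%, 0.774% and 0.132% (3.12%, 2.24% and 1.24% unthinned).

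**Figure D2:**
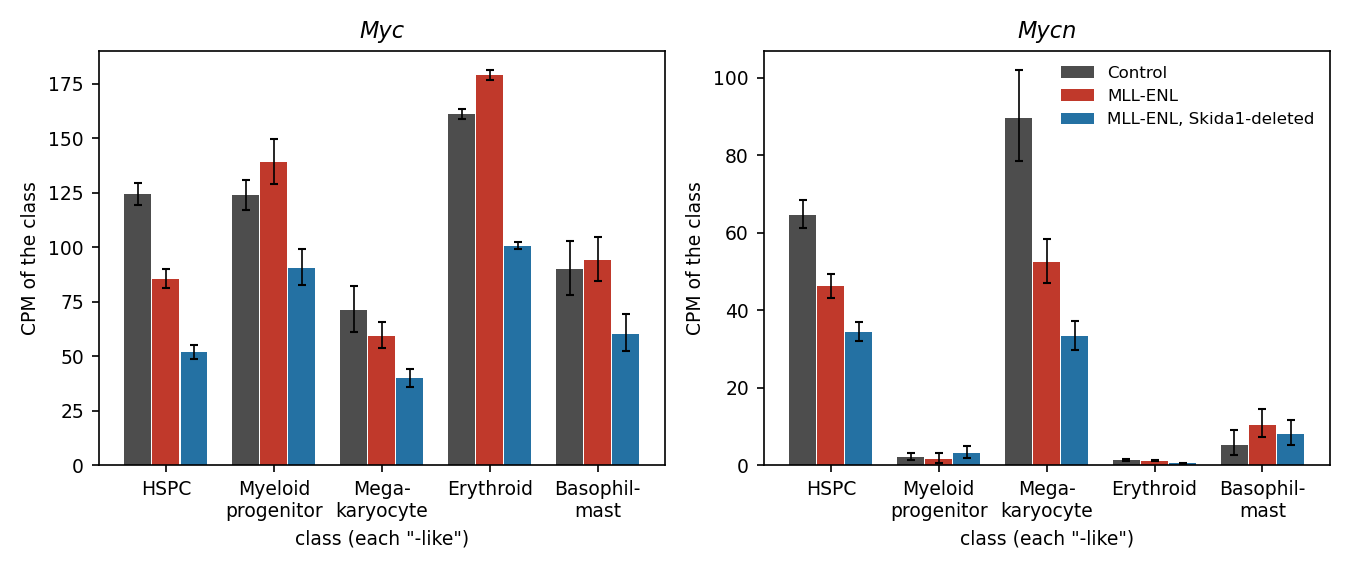
CPM of Myc (left) and Mycn (right) by class and library, with bars from 0 and 95% Poisson intervals. Myc is lower in the Skida1-deleted library than in MLL-ENL in all 5 classes, and Mycn is high only in the HSPC-like and megakaryocyte-like classes among the 5 drawn.

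The 2 factors differed in where they were found. Myc was, of the 5 classes compared, highest in erythroid-like cells, at 161 CPM in Control, 179 with MLL-ENL and 101 with the deletion. Mycn was at 1.34, 1.17 and 0.475 CPM there, and at 89.7, 52.6 and 33.5 CPM in megakaryocyte-like cells. Within HSPC-like cells of the 2 fusion libraries, the Hlf-highest cluster had the lowest Myc and the highest Mycn of the clusters with at least 50 cells of the same library. In MLL-ENL it held 32.6 CPM of Myc and 98.6 CPM of Mycn, and in the Skida1-deleted library 21.3 and 70.4 CPM. The largest other cluster of the class held 106 CPM of Myc and 44.2 CPM of Mycn in MLL-ENL, and 64.2 and 36.0 CPM in the Skida1-deleted library. Control had only 4 cells in the Hlf-highest cluster. Its cluster with 227 CPM of Hlf held 149 CPM of Myc and 87.3 CPM of Mycn. Its cluster with 148 CPM of Hlf, a cycling cluster, held 102 and 41.8 CPM. Between these Control clusters Myc was thus not lower where Hlf was higher. Outside the Hlf-highest cluster, the fusion libraries showed the same order. In MLL-ENL the cycling cluster held 156 CPM of Hlf and 88.7 CPM of Myc, and the largest other cluster 199 and 106 CPM. In the Skida1-deleted library these were 203 and 49.7 CPM, and 252 and 64.2 CPM.

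**Figure D3:**
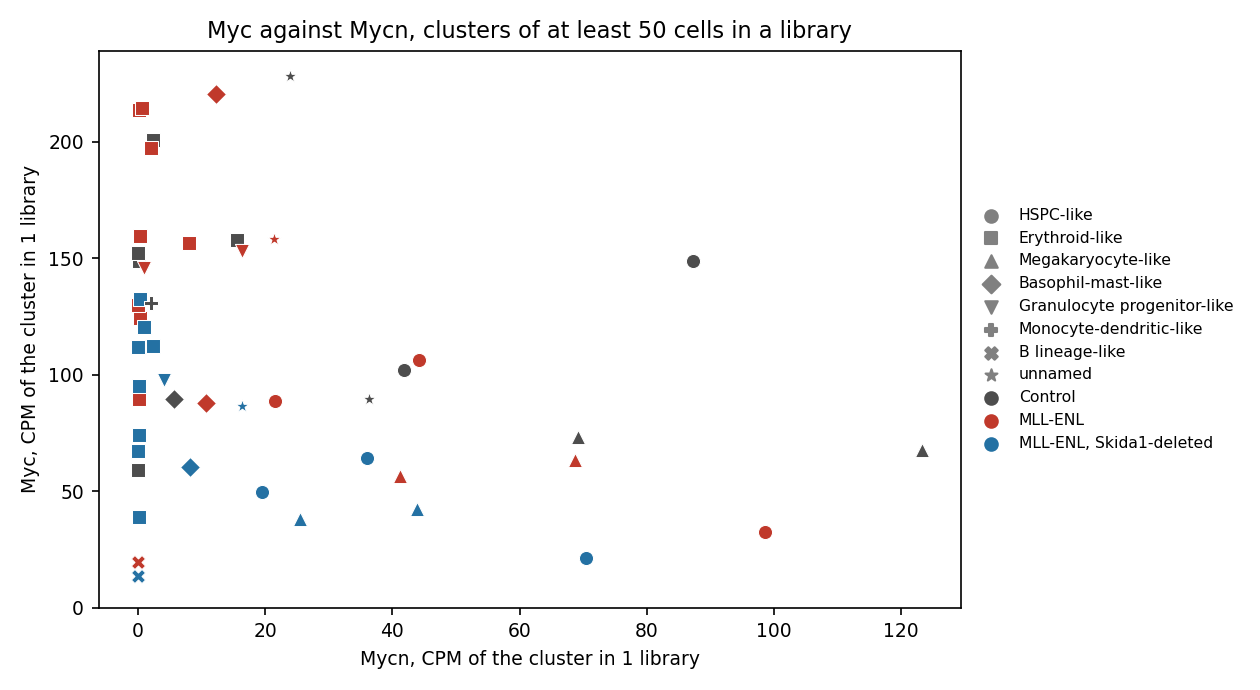
Myc against Mycn, both in CPM, for each cluster with at least 50 cells in a library. Shape gives the class and colour the library. Most erythroid-like clusters lie near 0 for Mycn, and the Hlf-highest HSPC-like cluster lies at the lower right, at 98.6 CPM of Mycn and 32.6 CPM of Myc in MLL-ENL.

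Between the 2 fusion libraries the 32 genes differed less. In HSPC-like cells the median log2 ratio of Skida1-deleted over MLL-ENL was 0.16 [0.01, 0.29], against -0.02 for all genes. At 1.5-fold, 1 of the 32 was higher and 1 was lower, where 1.41% of all genes were higher and 0.857% lower. The gene that was lower was Myc (chr15:61985341-61990361, GRCm38.p6), and the gene that was higher was Wdr43 (chr17:71616178-71659031), a factor of the small subunit processome. Wdr43 was at 124 CPM in Control, 126 with MLL-ENL and 200 with the deletion, a fold of 1.59 [1.51, 1.67]. In cells with at least 5000 UMIs and under 5% mitochondrial UMIs the median was 0.00041, so its size rests on the cell filter.

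Myc was lower and Wdr43 higher in each of the 5 classes compared. Myc had a log2 ratio of -0.71 in HSPC-like, -0.61 in myeloid progenitor-like, -0.56 in megakaryocyte-like, -0.82 in erythroid-like and -0.63 in basophil-mast-like cells. Wdr43 had 0.66, 0.67, 0.91, 0.73 and 0.71 in the same order. The classes come from the same pair of libraries, which differ in sex as well as in the deletion, and are not independent of each other.

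**Figure D4:**
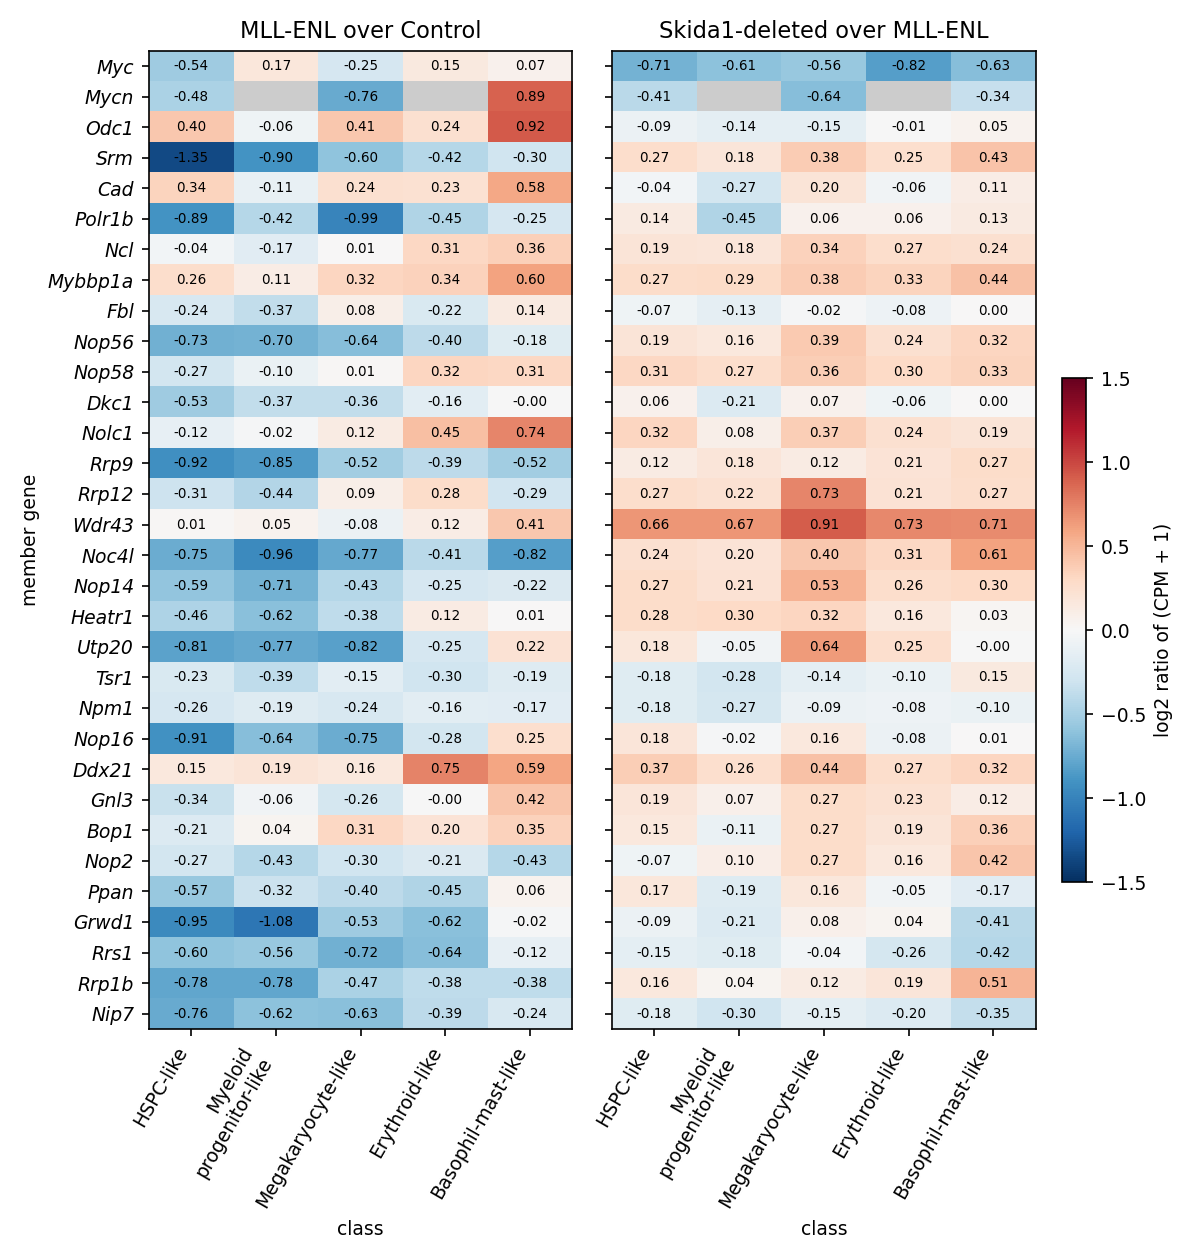
Log2 ratio of (CPM + 1) for each of the 32 genes (rows, by role) in 5 classes (columns), MLL-ENL over Control on the left and Skida1-deleted over MLL-ENL on the right. Grey cells are below the floor. The Myc row is blue and the Wdr43 row red in every class on the right, and Srm is -1.35 in HSPC-like cells on the left.

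In erythroid-like cells the genes split between higher and lower in MLL-ENL. The median log2 ratio over Control was -0.21 [-0.24, -0.17] for the 31 genes above the floor, against -0.14 for all genes. At 1.5-fold, 1 was higher and 2 were lower, with 4.99% and 10.9% of all genes. Ddx21 was the higher one, at 259 CPM in Control, 437 with MLL-ENL and 525 with the deletion, a fold of 1.68 [1.66, 1.71]. Nolc1 was at 332, 453 and 536 CPM and nucleolin at 3223, 3986 and 4802 CPM. Rrs1, at 131, 84.0 and 69.9 CPM, and Grwd1, at 60.2, 38.8 and 39.99 CPM, were the lower ones. Srm was at 361, 269 and 320 CPM.

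Skida1-deleted erythroid-like cells had a median log2 ratio of 0.19 [0.15, 0.23] over MLL-ENL, against -0.04 for all genes. Wdr43 was the 1 gene at least 1.5-fold higher (198 CPM in MLL-ENL, 328 in the Skida1-deleted library) and Myc the 1 lower, where 0.906% and 0.785% of all genes were. The 3 low-depth erythroid-like clusters held 2633 of the MLL-ENL cells, 340 of the Skida1-deleted cells and 37 of the Control cells.

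In myeloid progenitor-like cells the median over Control was -0.39 [-0.65, -0.17], against -0.18 for all genes, with 11 of 31 genes at least 1.5-fold lower and 0 higher (18.7% and 7.15% of all genes). Of the 368 Control cells, 336 were monocyte-dendritic-like, whereas 332 of the 343 MLL-ENL cells were granulocyte progenitor-like. Cell type and group cannot be told apart in this comparison. Srm was at 300.0 CPM in Control, 160 with MLL-ENL and 182 with the deletion, and Grwd1 at 53.9, 24.96 and 21.5 CPM. In the granulocyte progenitor-like clusters alone, with 32 Control cells, the median was 0.22 [-0.45, 0.55], against 0.07 for all genes. The sign was the opposite one and the bracket spanned 0. There 6 genes were higher and 2 lower (25.5% and 15.3% of all genes). In megakaryocyte-like cells the median was -0.33 [-0.58, -0.13], against -0.14 for all genes. Of the 32 genes 9 were lower and 0 higher there, where 14.9% and 7.55% of all genes were. Basophil-mast-like cells had a median of 0.03 [-0.21, 0.43], against -0.13 for all genes, with 5 genes higher and 1 lower (7.52% and 14.6% of all genes). Odc1 was at 55.6, 106 and 110 CPM there.

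Between the fusion libraries the same classes held few genes past 1.5-fold. In myeloid progenitor-like cells the median log2 ratio was 0.04 [-0.22, 0.21], against -0.06 for all genes. There 1 gene was higher and 1 lower (2.35% and 3.28% of all genes). The granulocyte progenitor-like clusters alone also had 1 higher and 1 lower (2.47% and 3.01%). In megakaryocyte-like cells the median was 0.23, against -0.02 for all genes, and 3 genes were higher and 1 lower (2.01% and 1.54%). The lower one was Mycn, and Myc, at a fold of 0.671 [0.581, 0.776], lay just inside the limit. The higher ones were Wdr43, Rrp12 and Utp20. Rrp12 was at 14.0, 14.97 and 25.5 CPM in these cells, and Utp20 at 30.7, 17.0 and 26.9 CPM. In basophil-mast-like cells the median was 0.14, against -0.03 for all genes, with 2 genes higher and 1 lower (2.73% and 3.41%).

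The level of the genes as a group also differed by class. The mean log2 level of the 30 genes other than Myc and Mycn was 6.64, 6.21 and 6.35 in HSPC-like cells in the order Control, MLL-ENL, Skida1-deleted, and 7.42, 7.31 and 7.44 in erythroid-like cells. It was 6.995, 6.59 and 6.61 in myeloid progenitor-like, 6.60, 6.32 and 6.57 in megakaryocyte-like and 6.13, 6.19 and 6.35 in basophil-mast-like cells. Erythroid-like cells thus had the highest level of the 5 classes in every library. All 32 genes together took 0.855%, 0.720% and 0.739% of the UMIs of HSPC-like cells, and 1.42%, 1.43% and 1.55% of those of erythroid-like cells.

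Neighbouring genes of the same pathways were counted from 6 lists with 174 genes. In HSPC-like cells 47 of the 170 above the floor were at least 1.5-fold lower in MLL-ENL than in Control and 8 were higher, with a median log2 ratio of -0.39. The counts that follow for these cells stand against 14.1% lower and 7.49% higher of all genes. Of 39 small subunit processome genes, 15 were lower and 0 higher, and of 40 large subunit genes 14 were lower and 1 higher. For RNA polymerase I, 4 of 19 were lower and 3 higher, and for snoRNPs 1 of 15 was lower and 1 higher. Of 40 metabolic genes known as MYC targets, 11 were lower and 2 higher, and of 17 MYC network partners 2 were lower and 1 higher. Polr1e, a subunit of that enzyme, was at 29.9, 11.1 and 11.0 CPM. Polr2l, a small subunit shared by the RNA polymerases, was at 13.3, 29.3 and 55.6 CPM, and Nop10, a small H/ACA protein, at 188, 353 and 387 CPM. Mxd3, a MAX partner that opposes MYC, was at 7.98, 1.40 and 2.66 CPM. Between the fusion libraries 3 of 168 were higher and 0 lower, where 1.41% and 0.857% of all genes were. The higher ones included Rpap3, a chaperone adaptor in snoRNP assembly, at 31.3 and 51.1 CPM. In erythroid-like cells 16 of 169 were lower and 9 higher in MLL-ENL than in Control, close to the 10.9% and 4.99% of all genes. There 3 of 168 were higher and 0 lower between the fusion libraries, where 0.906% and 0.785% of all genes were.

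Across 15 sums of class and library with at least 100 cells, the genes whose log2 level most resembled the log2 of the summed level of the 32 genes were Eprs (Pearson r = 0.982), Fam162a (0.972), Abce1 (0.970), Mrpl35 (0.966) and Dnttip2 (0.965), among 2502 genes on no list. Ncl and Npm1 made up 60.5% to 67.0% of that sum. Among the members, Heatr1 (0.979), Nop2 (0.959) and Gnl3 (0.958) were closest to the other members, Myc was at 0.592, Wdr43 at 0.577 and Mycn at -0.644. These are descriptions over points that share 3 libraries and their depth.

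**Figure D5:**
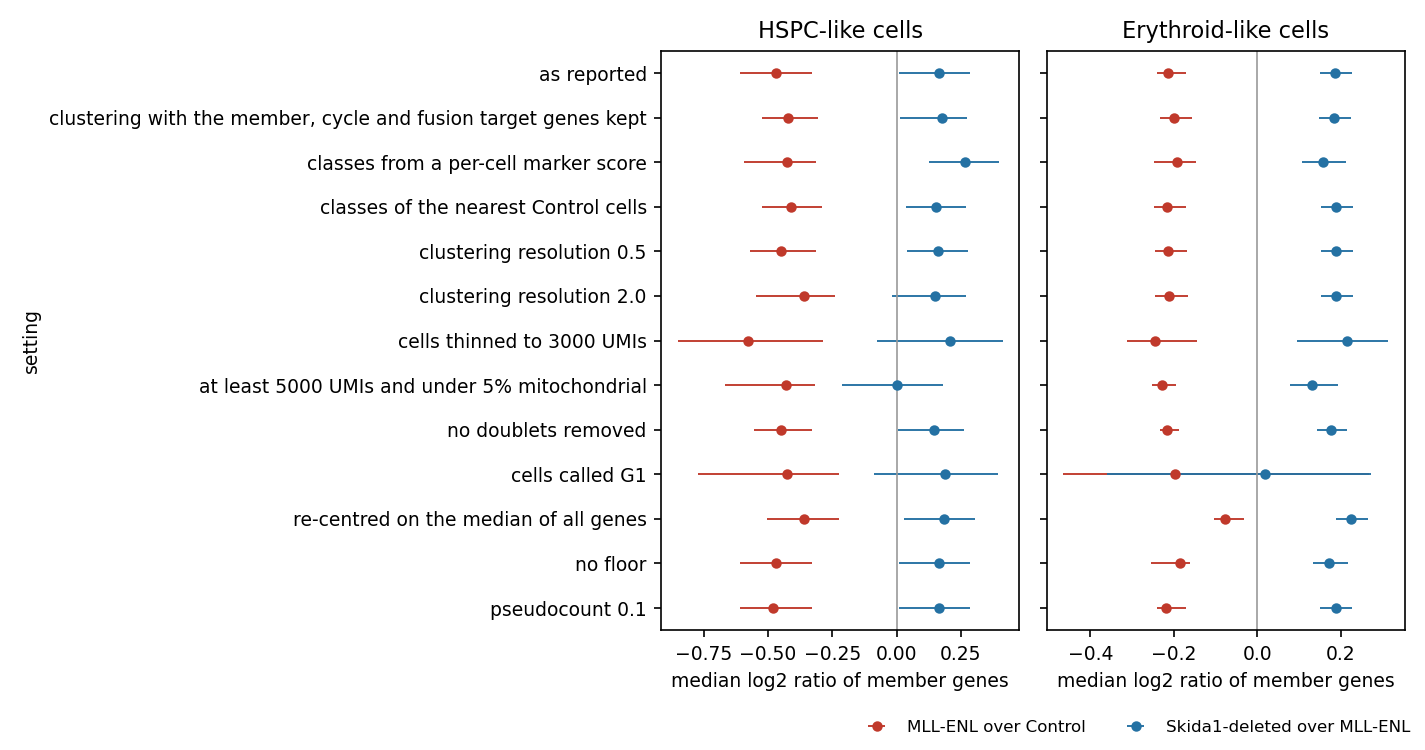
Median log2 ratio of the 32 genes in HSPC-like cells (left) and erythroid-like cells (right) under the reported processing and 12 alternatives. Bars join the medians of the genes' lower and upper counting limits. Every HSPC-like value for MLL-ENL over Control lies below 0, and the Skida1-deleted value reaches 0.00 with the stricter cell filter.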

How the data were processed

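CITE-seq libraries from 3 groups were analysed. The authors deposited raw UMI counts per gene and cell barcode, from Cell Ranger 6.1.2 per the file headers. The submitters' processing notes name Cell Ranger 6.0.1 and mm10. The sources used here do not give other filters. The 10 antibody tag counts served only 1 alternative, a gate on the Sca-1 tag.

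Cells with at least 1000 UMIs, 500 genes and under 10% mitochondrial UMIs were kept (5777, 11148 and 9962). Scrublet (scanpy 1.11.5) called 383, 341 and 618 doublets at its own threshold. The highest scores were removed at 0.8% per 1000 cells (267, 994 and 794). Leiden clustering (resolution 1.0, 30 components, 2000 variable genes, 15 neighbours) left out the 32 genes, pathway, cell cycle, fusion target, mitochondrial, ribosomal protein and sex-linked genes. Of 37 clusters, 3 stayed unnamed. A name needed at least 3 of its markers among the top 50 genes, a threshold set after the clusters were seen.

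UMIs were summed per class and library. A gene needed 5 CPM in either library and 50 UMIs over both. Intervals were exact Poisson for CPM and exact conditional binomial for folds. On simulated counts, 95.4% of 9639 genes in the HSPC-like comparison and 95.3% of 8390 genes in the erythroid-like comparison had their known ratio inside the interval. These counts held only the Poisson error that the intervals assume, and no differences between cells, clusters or animals. The shares therefore check the code and not the real error of these libraries.

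All 32 genes were accounted for. Of the 6 pathway lists, the 2 highest and 2 lowest genes per comparison in HSPC-like and erythroid-like cells could be named, of which some are given. The 5 most similar genes needed 30 CPM in every sum. The members and lists were chosen with earlier results of these data known.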

Additional observations from a re-analysis of the deposited data

Results flagged for a closer look

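Some of the 32 genes had counting intervals on opposite sides of equal level in HSPC-like and erythroid-like cells. The difference between the classes was not tested. For MLL-ENL over Control, the fold in HSPC-like and then in erythroid-like cells was 0.688 and 1.11 for Myc, 0.975 and 1.24 for Ncl, 0.827 and 1.25 for Nop58, 0.791 and 1.22 for Rrp12, 0.920 and 1.37 for Nolc1, 0.859 and 1.16 for Bop1, and 0.720 and 1.09 for Heatr1. For Skida1-deleted over MLL-ENL, Nop16 was at 1.13 in HSPC-like and 0.943 in erythroid-like cells, and Ppan at 1.13 and 0.965.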

How the results depend on the processing

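No paired analysis was possible because each group has 1 library. The HSPC-like median for MLL-ENL over Control lay between -0.58 and -0.33 over 16 alternatives, and 10 to 15 genes were lower. The cycling clusters and the cells called G2M or S were not among the 16. Their medians were -0.22, -0.24 and -0.57, with 9, 8 and 16 genes lower. All genes were at -0.15, -0.14 and -0.14 there. For Skida1-deleted over MLL-ENL the HSPC-like median was 0.00041 with at least 5000 UMIs and under 5% mitochondrial UMIs. The granulocyte progenitor-like median for that contrast was -0.86 at resolution 0.5, with 20 and 65 cells. Over its alternatives 0 to 12 genes were lower there, against 1. For MLL-ENL over Control in that class 1 to 11 were lower, against 2, and 0 to 7 higher, against 6. The erythroid-like median over Control was -0.24 with thinned cells, -0.077 re-centred on all genes and -0.17 in the cells with the highest globin share. Over its alternatives 0 to 5 genes were lower, against 2, and 0 to 2 higher, against 1. The log2 ratio of Ddx21 there lay between 0.35 and 0.96, against 0.75. For Skida1-deleted over MLL-ENL the erythroid-like median was 0.13 with the stricter filter and 0.019 in G1. Ncl in HSPC-like cells over Control changed sign, to 0.071 re-centred, 0.0054 with granulocyte progenitor-like cells added and 0.072 without the Hlf-highest cluster. Srm in HSPC-like cells, Skida1-deleted over MLL-ENL, was -0.015 with the stricter filter. Over the 16 alternatives, Myc in HSPC-like cells, MLL-ENL over Control, lay between -0.71 and -0.31. Mycn in the same comparison lay between -0.94 and -0.10. Beyond the 16, Myc was at -0.20 in the cycling clusters, -0.21 in G2M and -0.81 in S. Myc in erythroid-like cells over Control was -0.38 in G1, with 106 and 23 cells. The cause was not tested. The granulocyte progenitor-like comparison with Control gave no value under some alternatives, with under 20 cells in a library. The sums of that class with monocyte-dendritic cells, of HSPC-like with myeloid progenitor-like cells, and the sets without the Hlf-highest or low-depth clusters were chosen after seeing the data.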
